A study of Mus musculus with 16 samples.

Results

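The passage from VEGF-R2+ cells to CD41+ cells is the first step towards blood in differentiating mouse embryonic stem cells, and it was followed here across all 45037 probe sets that are not array controls. The arrays were chosen by sample title, which gave 4 of the 16 arrays analysed: 2 of CD41+ cells sorted on day 3.5 and 2 of VEGF-R2+ cells sorted on day 2.5. Gene expression was measured on Affymetrix Mouse Genome 430 2.0 arrays as MAS5 signal, the brightness of a probe set summarised by the scanner maker's algorithm. Both populations came from CCE mouse embryonic stem cells, 1 line, that had been kept on irradiated embryonic fibroblasts with leukemia inhibitory factor (LIF) and then grown without LIF as embryoid bodies. The cells were fixed in ethanol and acetic acid before they were stained and sorted, and the 2 arrays of a population held RNA from separate experiments. The labels give CD41 alone for the day 3.5 cells, while the study's text describes them as carrying VEGF-R2 as well. The other arrays were of CD41- cells of day 3.5, VEGF-R2- cells of day 2.5, and CD144+ and CD144- cells of days 3.5 and 6.5. They helped to estimate the spread between arrays, and some served as comparisons.

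In the embryo, mesoderm leaves the primitive streak under Nodal, BMP, Wnt and FGF signals, and its part that carries VEGF-R2 (Kdr) holds the hemangioblast, a precursor with blood and endothelial potential. Cells that commit to blood take up CD41, the integrin alpha IIb chain (Itga2b) that platelets later use to bind fibrinogen. The first wave of blood in the yolk sac makes primitive erythrocytes with embryonic globins, together with megakaryocytes and a few myeloid cells. Gata1, Tal1, Klf1, Runx1 and Spi1 (PU.1) are well known transcription factors of blood. Of these, Runx1 is required for the later, definitive blood and not for this first wave.

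The 2 CD41+ arrays did not hold quite the same mixture of transcripts. The ratio of 3' to 5' actin signal was 2.13 and 2.19 on the CD41+ arrays, against 1.80 and 2.06 on the VEGF-R2+ arrays, and the rank correlation over probe sets was 0.872 between the CD41+ arrays and 0.876 between the VEGF-R2+ arrays. CD41+ array 2 correlated nearly as well with the VEGF-R2+ arrays, at 0.868 and 0.862, against 0.844 and 0.835 for CD41+ array 1, and the pairs of negative arrays reached 0.945 to 0.955. Of 11418 genes whose mean CD41+ signal lay above the median of all values, 85.8, CD41+ array 1 was the brighter for 5825 (51%). Among members of the gene lists above that level it was the brighter for 21 of 23 erythroid membrane genes and 22 of 29 leukocyte genes, but for 2 of 40 endothelial genes and 0 of 24 pluripotency genes. For these 4 lists the counts of fits with fewer arrays are given beside them. In sorted bulk cells, fewer cells of a type and less RNA per cell cannot be told apart.

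Between the 2 positive populations, the sorting markers followed the labels at the RNA level. Itga2b read 7523 and 5299 on the CD41+ arrays, against 639 and 895 on the VEGF-R2+ arrays (log2 fold change 3.05 ± 0.24 (SE), adjusted p = 3.05e-07). Kdr read 1675 and 3335 in CD41+ cells, against 5475 and 6297 in VEGF-R2+ cells (log2 fold change -1.31 ± 0.27, adjusted p = 0.00399). Both CD41+ arrays were the higher for Itga2b and the lower for Kdr, with no overlap, and Kdr was still far above the median signal in CD41+ cells. Without CD41+ array 1 the Kdr fall was 0.82 on the log2 scale and no longer passed the test (adjusted p = 0.0740).

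Over all probe sets, 2262 were higher in CD41+ cells (5.02%) and 2170 were lower (4.82%) at an adjusted p under 0.05. There were 1304 higher ones without CD41+ array 1. The fold changes are on the scale of log2(signal + 6.03), which understates the change of dim genes. With 2 arrays a population the precision is limited by their number, and the p-values measure the spread between arrays pooled over all populations. The negative pairs in this pool correlated more closely than the compared pairs, so it can understate the spread of the compared populations. Of 4432 probe sets called, 1540 kept their call when the compared groups alone were fitted. A 90% bound beyond 2-fold was met by 888 higher probe sets (1.97%) and 929 lower ones (2.06%). With 1 probe set a gene, 1292 of 18193 genes were higher (7.10%) and 1386 were lower (7.62%). The changes of the higher genes were centred on 1.06 on the log2 scale, and 92 of them exceeded 3. Those of the lower genes were centred on a size of 1.27, and 86 exceeded 3. The signals of the 2 populations did not overlap, with the CD41+ arrays above, for 4719 genes (25.9%), and with the CD41+ arrays below for 4332 (23.8%). When only the arrays of the positive populations were fitted, 793 genes were higher (4.36%) and 820 lower (4.51%). The share of called genes differed widely between functional lists. Blood lists held up to 56% higher genes and lists of mesoderm and its signals up to 65.7% lower genes.

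**Figure D1:**
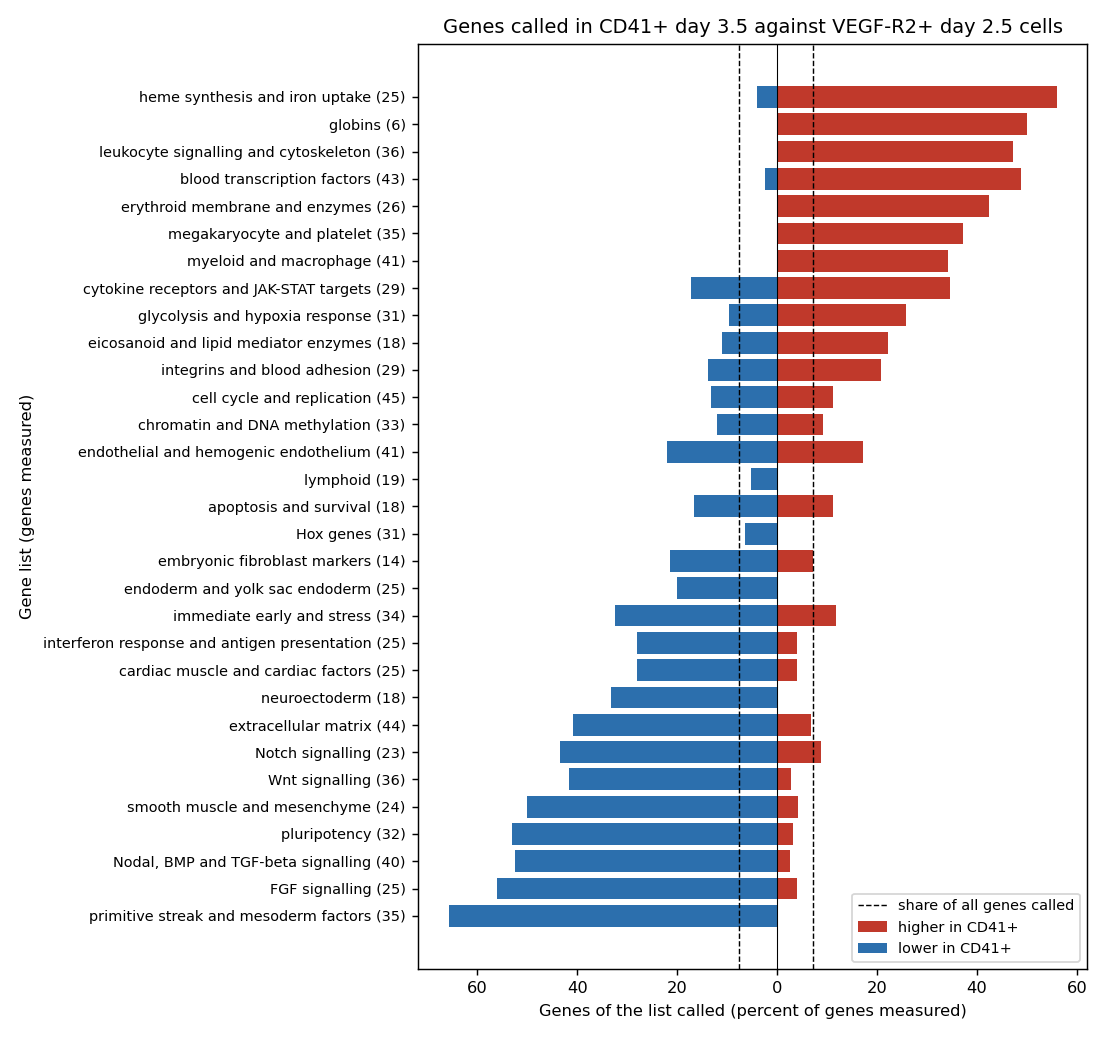
Percent of the measured genes of each list that were called higher (red, to the right) or lower (blue, to the left) in CD41+ day 3.5 cells against VEGF-R2+ day 2.5 cells, with the number of genes measured in brackets; dashed lines mark the shares over all genes, 7.10% higher and 7.62% lower. Heme, globin, leukocyte and blood transcription factor lists lie at the top, and streak, FGF, Nodal and BMP, and pluripotency lists at the bottom.

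The embryonic globins were higher in CD41+ cells, led by Hba-x with the largest log2 fold change of all probe sets tested, while no adult globin passed the test. Of 6 globin genes measured, 3 were higher in CD41+ cells and 0 lower. Hba-x (zeta globin) read 40893 and 32212 in CD41+ cells, against 19.5 and 10.9 in VEGF-R2+ cells (log2 fold change 10.77 ± 0.29, adjusted p = 3.75e-13). Hbb-bh1, an embryonic beta-like globin, read 55982 and 49236, against 268 and 460 in VEGF-R2+ cells (7.20 ± 0.23, adjusted p = 3.59e-12). Both genes were very bright in CD41+ cells, and the VEGF-R2+ signal of Hba-x was below the median of all values. Hbb-y, the other embryonic beta-like globin, read 3255 and 4535 in CD41+ cells and 37.9 and 75.4 in VEGF-R2+ cells (6.01 ± 0.41, adjusted p = 5.84e-08). The adult genes had overlapping signals. Hba-a2 read 124 and 66.3 in CD41+ cells, against 69.2 and 92.2 in VEGF-R2+ cells, and neither Hba-a1 (adjusted p = 0.916) nor Hbb-b2 (adjusted p = 0.869) passed the test. The globins are near-identical in parts of their sequence, so some probe sets may read more than 1 of them.

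Many genes that supply heme were higher in CD41+ cells. Of 25 genes of heme synthesis and iron uptake, 14 were higher and 1 lower, with a median log2 fold change of 0.64, against 0.03 over all genes. There were 11 higher genes without CD41+ array 1, and 9 when each gene was read by its probe set of largest variance in place of the brightest. The higher genes included the first and the last enzyme of the synthesis pathway. Alas2, the erythroid enzyme that commits glycine to heme, read 1415 and 716 in CD41+ cells, against 10.6 and 50.5 in VEGF-R2+ cells (5.04 ± 0.64, adjusted p = 6.03e-05). Later enzymes differed less, with log2 fold changes of 1.49 for Cpox, 1.68 for Ppox and 1.39 for Fech, which inserts the iron. Uros had 1.08, and its adjusted p of 0.00601 became 0.0944 without CD41+ array 1. Of the genes of iron supply, some were higher and others did not pass the test. Slc25a37 (mitoferrin), the carrier of iron into mitochondria, read 2347 and 2098 in CD41+ cells, against 512 and 270.5 in VEGF-R2+ cells (2.56 ± 0.27, adjusted p = 9.48e-06). The transferrin receptor Tfrc was bright in both populations, at 11505 and 10858 in CD41+ cells and 5604 and 6014 in VEGF-R2+ cells (0.94 ± 0.12, adjusted p = 4.87e-05). The mitochondrial carrier Slc25a39 (0.35, adjusted p = 0.161) and the iron sensors Aco1 (0.17, adjusted p = 0.635) and Ireb2 (-0.46, adjusted p = 0.101) were bright in both populations and did not pass. One gene ran the other way. It was Hmox1, which breaks heme down, at 578 and 625 in CD41+ cells, against 1690 and 1133 in VEGF-R2+ cells (-1.20 ± 0.30, adjusted p = 0.0176), and it did not pass without CD41+ array 1 (0.0973) or VEGF-R2+ array 1 (0.165).

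Some genes of the red cell membrane were higher in CD41+ cells and others did not pass the test. Of 26 genes of the red cell membrane and its enzymes, 11 were higher and 0 lower, with a median log2 fold change of 1.50. There were 5 higher genes without CD41+ array 1. Epb42 (protein 4.2) read 314 and 264.5 in CD41+ cells, against 19.0 and 2.02 in VEGF-R2+ cells (4.37 ± 0.71, adjusted p = 0.000603). Hemgn (hemogen), a nuclear protein of early erythroid cells, read 413 and 191, against 5.14 and 9.23 in VEGF-R2+ cells (4.46 ± 0.64, adjusted p = 0.000194). Epor, the erythropoietin receptor, read 1785 and 1290 in CD41+ cells and 275 and 265 in VEGF-R2+ cells (2.47 ± 0.28, adjusted p = 2.03e-05). On each of these genes every CD41+ array lay above every VEGF-R2+ array, as for 20 of the 26 in the list and 25.9% of all genes. Gypc, a glycophorin, was 2.04 higher on the log2 scale (adjusted p = 3.52e-05). Some central parts of the mature membrane did not pass the test: Slc4a1 (band 3) read 159 and 142 in CD41+ cells, against 70.3 and 48.5 in VEGF-R2+ cells, and Ank1 (ankyrin) read 306 and 258, against 237 and 226.

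**Figure D2:**
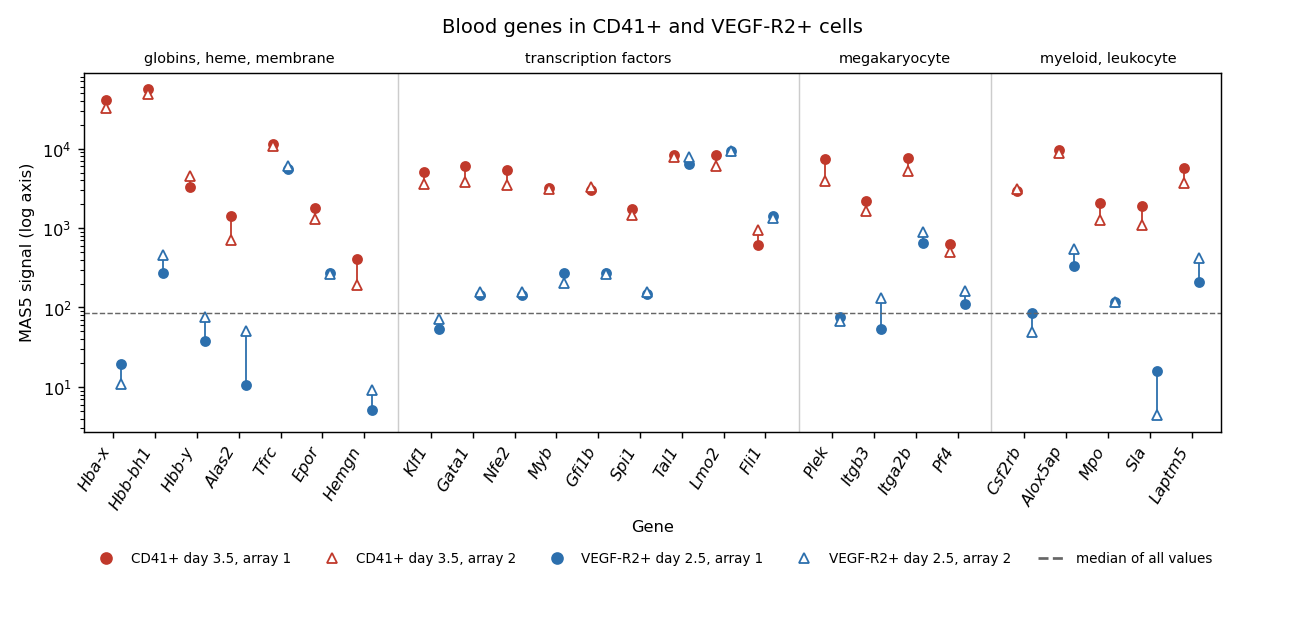
MAS5 signal on a log axis for named blood genes, each with its 2 CD41+ day 3.5 arrays (red) left of its 2 VEGF-R2+ day 2.5 arrays (blue); circles are array 1, triangles array 2, and lines join the arrays of a population, with the median of all values, 85.8, dashed. Globins, Klf1, Gata1, Plek and Sla are separated by more than an order of magnitude, whereas Tal1 and Lmo2 are bright in both populations. The genes were picked for drawing, and outside the transcription factors only genes called higher were drawn. Members not called, such as Slc4a1, Gp1bb, Csf1r and Coro1a, and the lower factor Cbfb were left out.

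Promoter sequence is shown for the heme and membrane genes because they rose together and many are textbook targets of Gata1 and Klf1. Of the 28 genes called higher in the globin, heme and membrane lists, 21 had a start site in RefSeq's table for GRCm38.p6, with windows of 250 bases before and 50 after it. The GATA letters AGATAA, searched on both strands (TTATCT on the other), were found in the windows of 6 genes: Alas2, Epor, Epb42, Trim10, Hemgn and Cpox. They occurred in 3672 of all 32851 windows (11.2%). The letters CCACACCC (GGGTGTGG on the other strand), which Klf1 is known to bind, were in 0 of the 21 genes' windows and in 3.56% of all windows. The letters of both motifs cannot overlap. The windows of Hba-x and Hbb-y held neither. A match describes letters, not binding. The bases before the start are printed 5' to 3' for Alas2, Epor and Epb42, whose match lies there and whose calls held with any array left out, with the match in capitals. Alas2 is at chrX:150547167-150547416 on the plus strand, Epor at chr9:21963577-21963826 on the minus strand and Epb42 at chr2:121036878-121037127 on the minus strand. Trim10, called higher at an adjusted p of 0.0463, did not pass when any 1 of the 4 arrays was left out.
Alas2: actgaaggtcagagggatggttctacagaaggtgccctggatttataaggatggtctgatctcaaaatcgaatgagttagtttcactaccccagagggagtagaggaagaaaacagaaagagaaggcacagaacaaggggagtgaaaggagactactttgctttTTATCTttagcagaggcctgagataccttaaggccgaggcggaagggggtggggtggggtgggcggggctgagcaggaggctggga
Epor: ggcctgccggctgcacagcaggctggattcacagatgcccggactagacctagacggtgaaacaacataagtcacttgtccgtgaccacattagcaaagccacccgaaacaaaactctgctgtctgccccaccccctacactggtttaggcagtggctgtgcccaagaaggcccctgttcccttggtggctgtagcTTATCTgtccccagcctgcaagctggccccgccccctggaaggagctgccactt
Epb42: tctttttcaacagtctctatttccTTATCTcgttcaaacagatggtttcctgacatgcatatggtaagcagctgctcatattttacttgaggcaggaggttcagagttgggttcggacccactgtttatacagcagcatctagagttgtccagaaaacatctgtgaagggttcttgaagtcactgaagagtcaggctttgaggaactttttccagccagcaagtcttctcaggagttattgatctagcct

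Among transcription factors of blood, many were raised in CD41+ cells while the founders of the lineage were already bright in VEGF-R2+ cells. Of 43 factors measured, 21 were higher in CD41+ cells and 1 lower, with a median log2 fold change of 0.99. When the compared groups alone were fitted, 16 were higher and 0 lower. Among erythroid and megakaryocyte factors, Klf1, which switches on the erythroid globin program, read 5017 and 3552 in CD41+ cells, against 53.2 and 71.2 in VEGF-R2+ cells (5.97 ± 0.64, adjusted p = 1.07e-05). Gata1 read 5986 and 3763 in CD41+ cells, against 142 and 155 in VEGF-R2+ cells (4.94 ± 0.30, adjusted p = 1.55e-08). Nfe2, a subunit of a factor that platelets and globin genes need, read 5333 and 3449, against 143 and 154 in VEGF-R2+ cells (4.79 ± 0.38, adjusted p = 4.20e-07). For each of these genes the lower CD41+ array was more than an order of magnitude above the higher VEGF-R2+ array. The Gata1 partner gene Zfpm1 (FOG-1) was 1.38 higher on the log2 scale and the repressor Gfi1b 3.52 higher. Factors linked to definitive and white cells rose as well. Myb read 3201 and 3108 in CD41+ cells and 269 and 202 in VEGF-R2+ cells (3.72 ± 0.16, adjusted p = 2.54e-10). Spi1, which drives myeloid cells, read 1731 and 1480 in CD41+ cells, against 148 and 157 in VEGF-R2+ cells (3.34 ± 0.35, adjusted p = 8.15e-06). Ikzf1 (Ikaros) was 3.18 higher, Ikzf2 2.69 and Lyl1, a close relative of Tal1, 2.38. In contrast, of 19 lymphoid genes measured, 0 were higher and 1 lower. The mean signals of 12 of them lay below the median of all values in both populations.

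Runx1, required for definitive blood, was read by 6 probe sets that did not move together. The brightest probe set read 605 and 368.5 in CD41+ cells, against 80.8 and 92.3 in VEGF-R2+ cells (2.37 ± 0.49, adjusted p = 0.00452), and without CD41+ array 1 its adjusted p was 0.0613. The other 3 probe sets that were higher had log2 fold changes of 2.68, 4.57 and 3.12. The remaining 2 did not pass the test, with values of -0.50 and -0.42. Cbfb, the partner subunit of Runx1, was the 1 lower factor, at 1396 and 1880 in CD41+ cells and 2475 and 2892 in VEGF-R2+ cells (-0.72 ± 0.16, adjusted p = 0.00886). It did not pass without CD41+ array 1 (0.115) or VEGF-R2+ array 2 (0.0922), and 0 to 4 factors were lower as single arrays were left out.

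The factors that found the blood lineage were at high signal in both populations. Tal1 (SCL) read 8395 and 7787 in CD41+ cells, against 6402 and 7941 in VEGF-R2+ cells, a log2 difference of 0.18 ± 0.18 that did not pass the test (adjusted p = 0.637). Its partner Lmo2 read 8188 and 6039 in CD41+ cells and 9317 and 9257 in VEGF-R2+ cells (-0.40 ± 0.20, adjusted p = 0.249). The 2 populations overlapped for Tal1 and not for Lmo2. Gata2 (-0.71, adjusted p = 0.0628), Fli1 (-0.86, adjusted p = 0.0988) and Hhex (-0.48, adjusted p = 0.0741) also had lower values that did not pass. Etv2, the factor that opens the blood and endothelial program in mesoderm, had fallen: it read 1054 and 1337 in CD41+ cells, against 12421 and 14254 in VEGF-R2+ cells (-3.48 ± 0.18, adjusted p = 2.43e-09).

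Megakaryocyte and platelet genes were raised beyond the sorting marker. Of 35 genes, 13 were higher and 0 lower, with a median log2 fold change of 0.89. The sorting marker Itga2b is itself among the 35 and among the 13. When the compared groups alone were fitted, 9 were higher. Plek (pleckstrin), a main substrate of protein kinase C in platelets, read 7340 and 3891 in CD41+ cells, against 75.7 and 68.3 in VEGF-R2+ cells (6.10 ± 0.49, adjusted p = 4.20e-07). Itgb3, the beta chain that pairs with CD41, read 2177 and 1654 in CD41+ cells and 53.7 and 133 in VEGF-R2+ cells (4.38 ± 0.65, adjusted p = 0.000237). Fermt3 (kindlin-3), which activates that integrin, read 15457 and 12331, against 788 and 916 in VEGF-R2+ cells (4.01 ± 0.19, adjusted p = 5.85e-10). Besides the CD41 chain used for sorting, its partner chain and the protein that activates the integrin were thus higher on both arrays. Granule and receptor genes followed at lower signal. Pf4 (platelet factor 4) read 625 and 497 in CD41+ cells, against 112 and 160 in VEGF-R2+ cells (2.01 ± 0.45, adjusted p = 0.00748), a call lost without CD41+ array 1 (0.0658) or VEGF-R2+ array 1 (0.0640). Of the glycoprotein receptor that binds von Willebrand factor, Gp5 (3.40) and Gp9 (2.71) were higher, while Gp1bb read 107 and 124 in CD41+ cells, against 157 and 184 in VEGF-R2+ cells, and did not pass the test (adjusted p = 0.513). The Gp9 call was lost without CD41+ array 1 (adjusted p = 0.129) or VEGF-R2+ array 2 (0.0877). Clec1b, a platelet receptor, read 1189 and 4267 in CD41+ cells and 306 and 802 in VEGF-R2+ cells (2.17 ± 0.57, adjusted p = 0.0222). Here array 2 was the brighter, and without it the adjusted p was 0.228, as it was 0.217 without VEGF-R2+ array 1.

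Myeloid genes and the signalling machinery of white cells were raised as well. Of 41 myeloid and macrophage genes, 14 were higher and 0 lower, and of 36 genes of leukocyte signalling and cytoskeleton, 17 were higher and 0 lower, with medians of 1.02 and 1.81. When the compared groups alone were fitted, 9 myeloid and 15 leukocyte genes were higher. Among surface receptors and their adaptors, Csf2rb, the shared beta chain of the IL-3, IL-5 and GM-CSF receptors, read 2908 and 3089 in CD41+ cells, against 84.6 and 49.3 in VEGF-R2+ cells (5.41 ± 0.37, adjusted p = 6.49e-08). Tyrobp (DAP12), a signalling adaptor, read 1352 and 1158, against 31.7 and 55.4 in VEGF-R2+ cells (4.71 ± 0.48, adjusted p = 6.19e-06). Fcer1g, the common Fc receptor chain, was 5.40 higher on the log2 scale (adjusted p = 0.000107). The receptor chains and adaptors were thus dim in VEGF-R2+ cells and bright in CD41+ cells. The granule enzyme Mpo (myeloperoxidase) read 2085 and 1261 in CD41+ cells and 117 and 118 in VEGF-R2+ cells (3.72 ± 0.40, adjusted p = 1.07e-05). Genes known from macrophages gave no single answer. The Fc receptor Fcgr3 was higher, at 448 and 316 in CD41+ cells, against 44.4 and 32.1 in VEGF-R2+ cells (3.12 ± 0.65, adjusted p = 0.00464). The lysozyme gene Lyz1 was 2.70 higher (adjusted p = 0.0210), a call lost without CD41+ array 1 (0.213) or VEGF-R2+ array 1 (0.150). The receptor Csf1r and the lysosomal marker Cd68 did not pass: Csf1r read 174 and 173 in CD41+ cells, against 172 and 231 in VEGF-R2+ cells, and Cd68 read 189 and 372, against 267 and 496.

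Inside the cell, the raised signalling genes spanned adaptors, phosphatases and small GTPases. Sla, an adaptor that dampens antigen receptor signals, read 1881 and 1077 in CD41+ cells, against 15.7 and 4.38 in VEGF-R2+ cells (6.57 ± 0.66, adjusted p = 5.14e-06). Laptm5, a lysosomal protein of blood cells, read 5689 and 3709, against 210 and 424 in VEGF-R2+ cells (3.92 ± 0.32, adjusted p = 5.94e-07). The blood-specific GTPase Rac2 was 3.06 higher, the phosphatase Ptpn6 (SHP-1) 2.36 and Plcg2 2.11. Bright members that did not pass the test were the actin regulators Coro1a, at 1036 and 694 in CD41+ cells, against 531 and 613 in VEGF-R2+ cells (adjusted p = 0.102), and Lcp1, at 424 and 547, against 465 and 308 (adjusted p = 0.532).

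Of 18 enzymes of eicosanoids and related lipid mediators, 4 were higher and 2 lower. The 4 higher ones are known from the making of leukotrienes, a grouping seen only after their values. Pla2g4a, which frees arachidonic acid from membranes, read 1207 and 931 in CD41+ cells, against 50.9 and 89.4 in VEGF-R2+ cells (3.85 ± 0.33, adjusted p = 8.52e-07). Alox5ap (FLAP), which presents it to 5-lipoxygenase, read 9618 and 8898, against 330 and 552 in VEGF-R2+ cells (4.42 ± 0.20, adjusted p = 4.88e-10). Alox5 itself was 3.35 higher (adjusted p = 0.000505) and Ltc4s, leukotriene C4 synthase, 4.09 higher (adjusted p = 0.00782). On these 4 members both CD41+ arrays lay above both VEGF-R2+ arrays, as they did for 5 of the 18 in the list and 25.9% of all genes. Lta4h, which makes leukotriene B4, was bright throughout, at 5008 and 4106 in CD41+ cells and 3832 and 4109 in VEGF-R2+ cells (0.19, adjusted p = 0.522). The lower members were prostaglandin synthases. Ptgds read 141 and 141 in CD41+ cells, against 598 and 590 in VEGF-R2+ cells (-2.03 ± 0.25, adjusted p = 5.00e-05), and Ptges had a log2 fold change of -1.57 (adjusted p = 0.0183), with adjusted p from 0.0605 to 0.0692 without CD41+ array 1 or either VEGF-R2+ array.

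Cytokine receptors differed in direction by family. Of 29 receptors and JAK-STAT genes, 10 were higher and 5 lower. Besides Csf2rb and Epor, the stem cell factor receptor Kit was higher, at 2785 and 2659 in CD41+ cells and 905 and 719 in VEGF-R2+ cells (1.75 ± 0.19, adjusted p = 1.15e-05). The transducers Stat5a (2.24), Stat5b (1.60) and Stat3 (0.74) were higher as well. The receptors of the LIF family were lower. Lifr, through which LIF holds stem cells undifferentiated, read 377 and 698 in CD41+ cells, against 1943 and 1668 in VEGF-R2+ cells (-1.80 ± 0.21, adjusted p = 2.11e-05), and its partner Il6st (gp130) had a log2 fold change of -1.40 (adjusted p = 2.25e-05). Socs2, a feedback inhibitor, read 635 and 1287 in CD41+ cells and 5142 and 4179 in VEGF-R2+ cells (-2.35 ± 0.25, adjusted p = 9.11e-06). The kinase Jak1 had a log2 difference of -0.06 (adjusted p = 0.902).

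Integrins and adhesion molecules were split as well. Of 29 genes, 6 were higher and 4 lower. The sorting marker Itga2b is among the 6. Itga4, the alpha 4 chain used by blood progenitors, read 741 and 467 in CD41+ cells, against 118 and 54.2 in VEGF-R2+ cells (2.78 ± 0.40, adjusted p = 0.000212). Cd44 (1.55) and Podxl (1.05) were also higher. Itgb5 read 102 and 443 in CD41+ cells, against 1113 and 914 in VEGF-R2+ cells (-2.20 ± 0.39, adjusted p = 0.00123). The 4 lower genes became 2 without CD41+ array 1 and 7 without CD41+ array 2.

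Most factors of the primitive streak and of nascent mesoderm were lower in CD41+ cells. Of 35 measured, 0 were higher and 23 lower (65.7%), with a median log2 fold change of -1.99, and 21 to 24 were lower when each array was left out. Mixl1, a homeobox factor of the streak, read 339 and 645 in CD41+ cells, against 11079 and 11204 in VEGF-R2+ cells (-4.56 ± 0.21, adjusted p = 5.88e-10). Mesp1, which marks cells leaving the streak for heart and blood, read 306.5 and 395 in CD41+ cells, against 5677 and 5168 in VEGF-R2+ cells (-3.94 ± 0.26, adjusted p = 4.17e-08). Eomes, a T-box factor of the same cells, read 282 and 630, against 5611 and 5157 in VEGF-R2+ cells (-3.65 ± 0.27, adjusted p = 1.59e-07). All were bright in VEGF-R2+ cells, and both CD41+ arrays lay far below both VEGF-R2+ arrays. Evx1 (-3.40), Lhx1 (-3.23), Gsc (-3.70) and Twist1 (-3.71) were lower too, as was Pdgfra, a receptor of paraxial mesoderm, at 75.9 and 108 in CD41+ cells, against 1060 and 866 in VEGF-R2+ cells (-3.32 ± 0.23, adjusted p = 7.32e-08). Foxa2, of definitive endoderm and axial mesoderm, had a value of 0.55 that did not pass the test (adjusted p = 0.161).

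**Figure D3:**
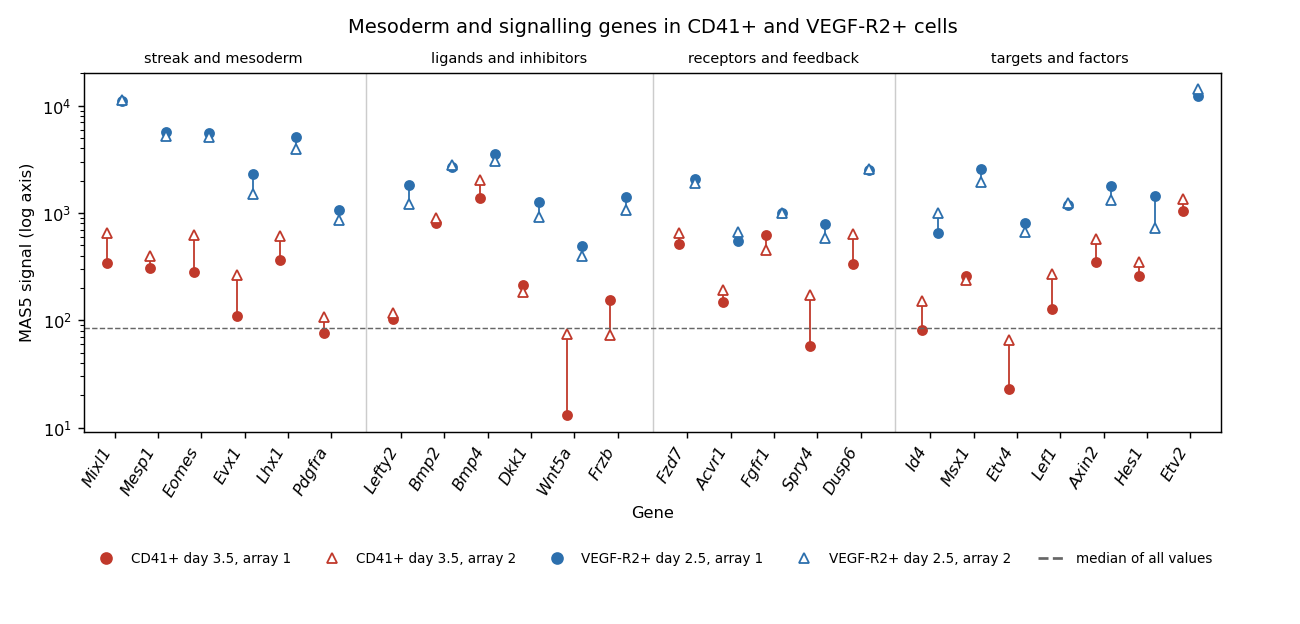
MAS5 signal on a log axis for named mesoderm and signalling genes, each with its 2 CD41+ day 3.5 arrays (red) left of its 2 VEGF-R2+ day 2.5 arrays (blue); circles are array 1, triangles array 2, and the dashed line is the median of all values, 85.8. Only genes called lower in CD41+ cells were picked for drawing, and their arrays do not overlap. They run from Mixl1 and Etv2 at the top of the VEGF-R2+ range to Etv4 and Wnt5a, whose CD41+ signals fall below the median. Members that were higher or not called, such as Tgfb1, Fzd8, Fgfr3 and Nodal, were left out.

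Many genes of the signals that pattern mesoderm were lower in CD41+ cells, and others did not pass the test. Of 40 Nodal, BMP and TGF-beta genes, 1 was higher and 21 lower, with a median log2 fold change of -0.96. Among ligands and co-receptors, Bmp4 read 1380 and 2038 in CD41+ cells, against 3579 and 3035 in VEGF-R2+ cells (-0.97 ± 0.17, adjusted p = 0.00143), and Bmp2 had a log2 fold change of -1.68 (adjusted p = 4.14e-06). Tdgf1 (Cripto), the Nodal co-receptor, read 1314 and 2862 in CD41+ cells and 17375 and 13337 in VEGF-R2+ cells (-2.97 ± 0.23, adjusted p = 3.71e-07). Nodal itself did not pass the test, at 272 and 422 in CD41+ cells, against 378 and 496 in VEGF-R2+ cells (-0.35, adjusted p = 0.372). The inhibitor Lefty2, a direct Nodal target, read 103 and 118 in CD41+ cells, against 1841 and 1220 in VEGF-R2+ cells (-3.69 ± 0.18, adjusted p = 1.28e-09). Of these, the co-receptor and the target were lower and the ligand did not pass the test. On the BMP side, the type I receptor Acvr1 (-1.80), the transducer Smad1 (-2.03), and the targets Id1 (-1.20), Id2 (-1.80), Id3 (-1.65), Id4 (-2.79), Msx1 (-3.14) and Msx2 (-2.12) were all lower. For Id3 the CD41+ arrays were far apart, at 613 and 2685, and its adjusted p was 0.0569 without CD41+ array 1 and 0.104 without VEGF-R2+ array 2. The 1 higher gene, which became 3 without CD41+ array 1, was Tgfb1, at 8397 and 7655 in CD41+ cells, against 4736 and 4578 in VEGF-R2+ cells (0.78 ± 0.13, adjusted p = 0.000910), while its receptor Tgfbr1 had a value of -0.07 (adjusted p = 0.848).

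The Wnt list had 1 higher and 15 lower genes of 36. The lower genes were 12 without CD41+ array 1, 11 without VEGF-R2+ array 2, 10 when the compared groups alone were fitted, and 6 when each gene was read by its probe set of largest variance. The ligand Wnt5a read 13.0 and 74.9 in CD41+ cells, against 494 and 396 in VEGF-R2+ cells at its brightest probe set (-3.51 ± 0.48, adjusted p = 0.000108). The receptors Fzd1 (-2.34), Fzd2 (-2.53) and Fzd7 (-1.76) were lower and Fzd8 was higher, at 241 and 252.5 in CD41+ cells and 83.5 and 66.0 in VEGF-R2+ cells (1.65 ± 0.26, adjusted p = 0.000503). Some secreted inhibitors and targets were lower as well. Dkk1 had a log2 fold change of -2.41, Frzb -3.44, Axin2 -1.78 and Lef1 -2.67, while the co-receptor Lrp6 had a value of -0.21 (adjusted p = 0.452).

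The FGF list had 1 higher and 14 lower genes of 25. Of the 14 lower genes, 8 act downstream of the receptor, as inhibitors of the signal or as factors it induces. Dusp6, a phosphatase of ERK, read 338 and 637.5 in CD41+ cells, against 2518 and 2582 in VEGF-R2+ cells (-2.44 ± 0.21, adjusted p = 8.33e-07). Etv4, an ETS factor that FGF induces, read 23.1 and 65.8, against 804 and 659 in VEGF-R2+ cells (-4.00 ± 0.40, adjusted p = 4.41e-06). Etv5 (-1.65), Dusp4 (-2.35), Spry2 (-1.67), Spry4 (-2.69), Spred1 (-1.57) and Spred2 (-1.50) were lower as well. Every one of these targets was below its VEGF-R2+ signals on both CD41+ arrays, as were 16 of the 25 in the list and 23.8% of all genes. The lower genes also held the ligands Fgf4 (-2.14) and Fgf8 (-1.04), the receptor Fgfr2 (-1.15), the decoy receptor Fgfrl1 (-1.19) and the membrane protein Flrt3 (-1.52). Fgfr2 did not pass without VEGF-R2+ array 2 (0.0630), nor Fgfrl1 without that array (0.176) or CD41+ array 1 (0.0894). Among the other receptors, Fgfr1 was lower, at 623 and 457 in CD41+ cells and 1005 and 1003 in VEGF-R2+ cells (-0.91 ± 0.20, adjusted p = 0.00613; 0.0558 without CD41+ array 2), and Fgfr3 higher, at 447 and 361.5, against 79.2 and 129 (1.93 ± 0.32, adjusted p = 0.000727).

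The Notch list had 2 higher and 10 lower genes of 23. Without CD41+ array 1 there were 1 and 6, and without CD41+ array 2 there were 0 and 12. The ligands Dll1 (-1.43), Dll3 (-2.51) and Jag1 (-0.96), the receptors Notch1 (-1.59), Notch3 (-1.02) and Notch4 (-1.25) and the targets Hes1 (-1.75) and Hey1 (-1.59) were lower. Notch1 read 314 and 993 in CD41+ cells, against 1563 and 1843 in VEGF-R2+ cells, so that its CD41+ arrays were about as far apart as the populations. Its adjusted p of 0.00502 became 0.0528 without VEGF-R2+ array 2. Notch3 (0.0681) and Notch4 (0.332) did not pass without CD41+ array 1, nor Notch4 (0.235) without VEGF-R2+ array 2. Rbpj, the DNA-binding partner of Notch, had a value of 0.04 (adjusted p = 0.901).

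Endothelial genes moved both ways, and no single direction described them. Of 41 genes of endothelium and hemogenic endothelium, 7 were higher and 9 lower, with a median log2 fold change of -0.18. Higher genes included surface molecules shared by endothelium and early blood. Cd34 read 1738 and 2754 in CD41+ cells, against 454 and 648 in VEGF-R2+ cells (2.00 ± 0.24, adjusted p = 3.43e-05). Tie1, an orphan receptor kinase of endothelium, read 1915 and 2510, against 399 and 596 in VEGF-R2+ cells (2.15 ± 0.34, adjusted p = 0.000444). Lyve1, a hyaluronan receptor, read 760 and 1079, against 51.9 and 121 in VEGF-R2+ cells (3.41 ± 0.56, adjusted p = 0.000658). Pecam1 (1.85) and the flow-responsive factor Klf2 (1.14) were higher too. On all of these the CD41+ arrays lay above the VEGF-R2+ arrays. The same held for 10 of the 41 in the list, near the share of 25.9% over all genes. The lower genes were mostly receptors of VEGF and its relatives. Besides Kdr, they held Flt1 (-1.08), Flt4 (-1.23), Nrp1 (-1.86) and Nrp2, which read 1069 and 1566 in CD41+ cells, against 6306 and 6534 in VEGF-R2+ cells (-2.31 ± 0.17, adjusted p = 2.28e-07). Sox7 (-1.43), Aplnr (-1.30) and Egfl7 (-0.83) were lower as well. Cdh5 (VE-cadherin) read 828 and 1852 in CD41+ cells, against 643 and 839 in VEGF-R2+ cells (0.75 ± 0.35, adjusted p = 0.215), and Tek (Tie2) had a value of 0.01 (adjusted p = 0.992).

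The endothelial genes separated the 2 CD41+ arrays. The summed signal of the list was 40430 and 77490 on the CD41+ arrays, against 84968 and 103202 on the VEGF-R2+ arrays, and array 1 was the brighter of the CD41+ pair for 2 of the 40 members above the median signal. Of the VEGF-R2+ pair, array 1 was the brighter for 7 of 38 members. Without CD41+ array 1 there were 9 higher and 4 lower genes, and without CD41+ array 2 there were 6 higher and 15 lower. Without CD41+ array 1 the adjusted p was 0.0740 for Kdr, 0.0625 for Sox7, 0.0799 for Flt4, 0.112 for Aplnr and 0.0934 for Egfl7. Without VEGF-R2+ array 2 it was 0.0569 for Sox7, 0.0655 for Aplnr and 0.0862 for Egfl7, whereas Nrp1, Nrp2, Flt1 and Etv2 passed with any array left out.

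**Figure D4:**
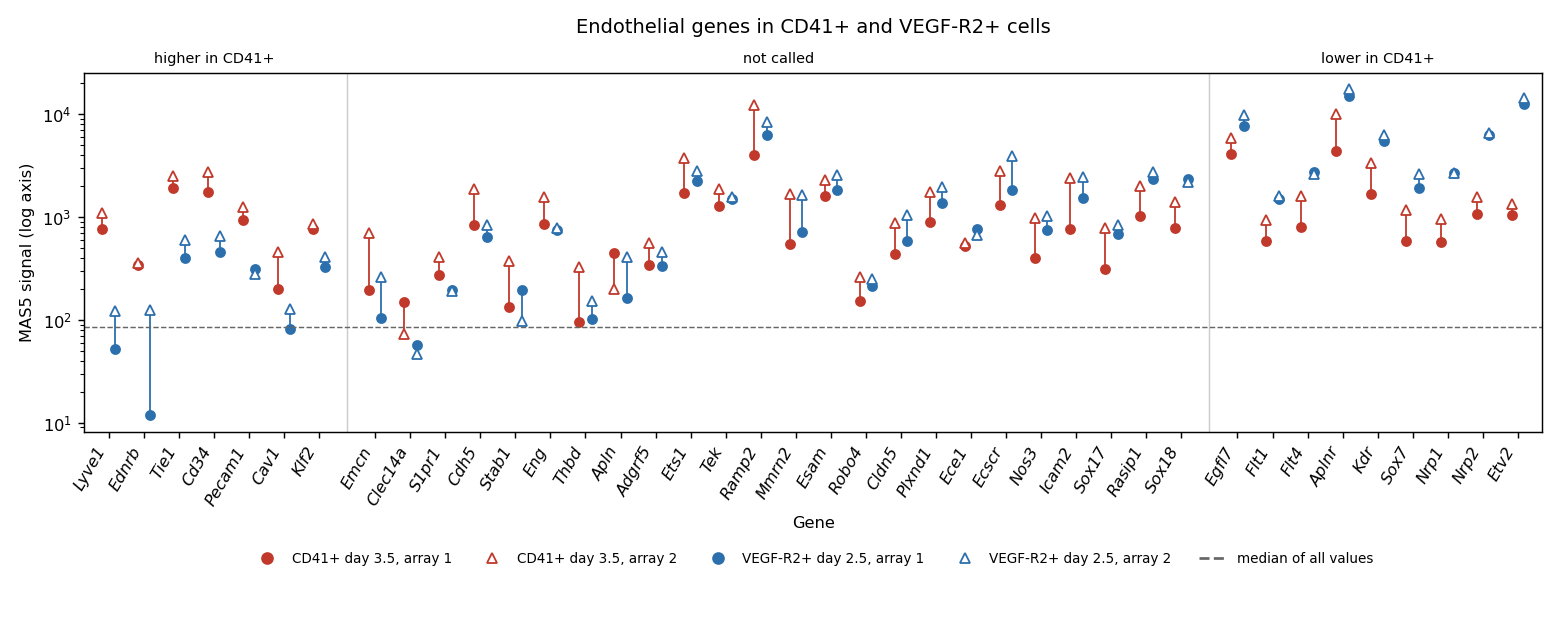
MAS5 signal on a log axis for the endothelial genes above the median signal in CD41+ or VEGF-R2+ cells, grouped by call, each with its 2 CD41+ day 3.5 arrays (red) left of its 2 VEGF-R2+ day 2.5 arrays (blue); circles are array 1, triangles array 2, and the dashed line is the median of all values, 85.8. In CD41+ cells the triangle lies above the circle for nearly all genes, by as much as the distance between the populations for Emcn, Cdh5 and Ramp2.

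Of the markers of other cells that embryoid bodies can hold, some were lower in CD41+ cells, but in all lists save that of smooth muscle and mesenchyme most members were not called. Of 25 cardiac genes, 1 was higher and 7 lower, led by Myl7, the atrial myosin light chain, at 289 and 327 in CD41+ cells, against 10854 and 10815 in VEGF-R2+ cells (-5.11 ± 0.18, adjusted p = 1.83e-11). Of 24 smooth muscle and mesenchyme genes, 1 was higher and 12 lower, with Cdh11 at 120 and 127 in CD41+ cells, against 4129 and 2720 in VEGF-R2+ cells (-4.70 ± 0.23, adjusted p = 1.07e-09). Of 44 extracellular matrix genes, 3 were higher and 18 lower, and without CD41+ array 1 there were 4 and 11. Vcan (versican), a proteoglycan of loose mesenchyme, read 58.6 and 112, against 1561 and 1540 in VEGF-R2+ cells (-4.16 ± 0.24, adjusted p = 8.24e-09). In each of these lists the named gene was bright in VEGF-R2+ cells and more than an order of magnitude lower on both CD41+ arrays. The 14 markers of embryonic fibroblasts, which would report feeder cells, summed to 1151 and 1080 in CD41+ cells and 1761 and 1978 in VEGF-R2+ cells. Of these markers, 9 had mean signals below the median of all values in both populations. Col1a1 read 5.87 and 11.8, against 69.9 and 41.0, all below that median. Its call was lost with a floor of 50 (adjusted p = 0.963). Of 25 endoderm genes 0 were higher and 5 lower, and of 18 neuroectoderm genes 0 and 6. The endoderm count became 9 without CD41+ array 2, the neuroectoderm count 4 without CD41+ array 1 and 9 without CD41+ array 2, and the summed signals were 20879 and 36869 in CD41+ cells, against 28196 and 37241 in VEGF-R2+ cells for endoderm, and 1756 and 3501, against 7850 and 7346 for neuroectoderm. The part of other cell types in the results was not tested.

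Many pluripotency genes were lower in CD41+ cells, and they also separated the 2 CD41+ arrays. Of 32 genes, 1 was higher and 17 lower, with a median log2 fold change of -0.90. Pou5f1 (Oct4) read 464 and 2200 in CD41+ cells, against 6299 and 5498 in VEGF-R2+ cells (-2.53 ± 0.44, adjusted p = 0.0010). Dppa5a read 625.5 and 2046, against 3377 and 5085 in VEGF-R2+ cells (-1.87 ± 0.34, adjusted p = 0.00161). Sox2 overlapped, at 217 and 643 in CD41+ cells and 335 and 461 in VEGF-R2+ cells. The summed signal of the list was 17304 and 33787 on the CD41+ arrays, against 61255 and 57869 on the VEGF-R2+ arrays. Array 2 carried more of every one of the 24 members above the median signal, and there were 11 lower genes without CD41+ array 1 and also without VEGF-R2+ array 2. Sorted cells that had stayed undifferentiated, and their part in the results, were not tested.

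Genes of growth and metabolism were less one-sided. Over all genes, 7.10% were higher and 7.62% lower, against 11.1% and 13.3% of the cell cycle list. Of 45 cell cycle genes, 5 were higher and 6 lower, and without CD41+ array 1 there were 3 and 4. The D cyclins differed in direction. Ccnd1 read 1079 and 2038 in CD41+ cells, against 8159 and 10037 in VEGF-R2+ cells (-2.60 ± 0.21, adjusted p = 4.33e-07), while Ccnd3 read 5856 and 7417, against 2538 and 3118 (1.23 ± 0.15, adjusted p = 4.99e-05). Mki67, a proliferation marker, was 1.18 higher (adjusted p = 5.40e-06), and Pcna had a value of -0.26 (adjusted p = 0.337). Of 31 genes of glycolysis and the hypoxia response, 8 were higher and 3 lower. The hexokinases differed in direction, with Hk1 at 1900 and 2433 in CD41+ cells, against 530 and 681 in VEGF-R2+ cells (1.83 ± 0.20, adjusted p = 1.07e-05), and Hk2 at 1632 and 1345, against 2278 and 2199 (-0.59 ± 0.14, adjusted p = 0.0124). The Hk2 call was lost without CD41+ array 2 (0.0883) or either VEGF-R2+ array (0.0700 and 0.0509). Of 34 immediate early and stress genes, 4 were higher and 11 lower. Without CD41+ array 1 there were 6 lower genes, and without VEGF-R2+ array 2 there were 5. Ddit3 (CHOP), a factor of the unfolded protein response, read 1894 and 1064 in CD41+ cells, against 222 and 188.5 in VEGF-R2+ cells (2.76 ± 0.26, adjusted p = 2.91e-06). Fos overlapped, at 787 and 3708 in CD41+ cells and 1660 and 5865 in VEGF-R2+ cells.

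Negative cells were sorted on both days. The change in positive cells could thus be set against the change from VEGF-R2- cells of day 2.5 to CD41- cells of day 3.5. In both, the sorting marker changed with the day, so the parts of day and marker cannot be told apart. The difference between the 2 changes passed the test upwards for 1049 probe sets (2.33%) and 678 genes (3.73%), and downwards for 1079 probe sets (2.40%) and 729 genes (4.01%). Spiked hybridisation controls read 8122 to 10110 on the CD41+ and VEGF-R2+ arrays and 2490 to 3497 on these negative arrays, and the part of that difference in the result was not tested. Kdr itself read 53.5 and 95.1 in CD41- cells, against 2088 and 2077 in the cells labelled VEGF-R2-, where it was thus far above the median signal, though below both VEGF-R2+ arrays. Its log2 fold change in negative cells was -4.75, and the change in positive cells exceeded it by 3.44 (adjusted p = 2.85e-05). Several founding factors that did not pass the test between the positive populations did so here. Tal1 read 71.5 and 45.9 in CD41- cells, against 1548 and 1321 in VEGF-R2- cells, a log2 fold change of -4.50, so that the change in positive cells exceeded it by 4.68 (adjusted p = 2.01e-08). The same difference was 3.22 for Lmo2 (adjusted p = 2.62e-06), 5.31 for Fli1 (adjusted p = 1.61e-06) and 2.10 for Gata2 (adjusted p = 0.000793). Over the blood transcription factors, 24 of 43 genes had a difference that passed upwards and 0 downwards, and over the endothelial genes 20 of 41 and 1. Etv2 was lower on day 3.5 in positive and in negative cells, and the difference of -0.48 did not pass (adjusted p = 0.397).

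Streak factors behaved differently in the 2 kinds of cells. Of 35, 0 had a difference that passed upwards and 16 downwards. The change of Mixl1 was 0.08 in negative cells and the difference -4.64 (adjusted p = 1.49e-07), and that of Eomes was 0.87 and -4.52 (adjusted p = 1.88e-06). Genes of glycolysis and hypoxia had a median change of 0.53 in negative cells and of 0.27 in positive cells. Bnip3, a hypoxia target, was 1.22 higher in positive and 1.49 higher in negative cells, and the difference of -0.27 did not pass (adjusted p = 0.666).

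**Figure D5:**
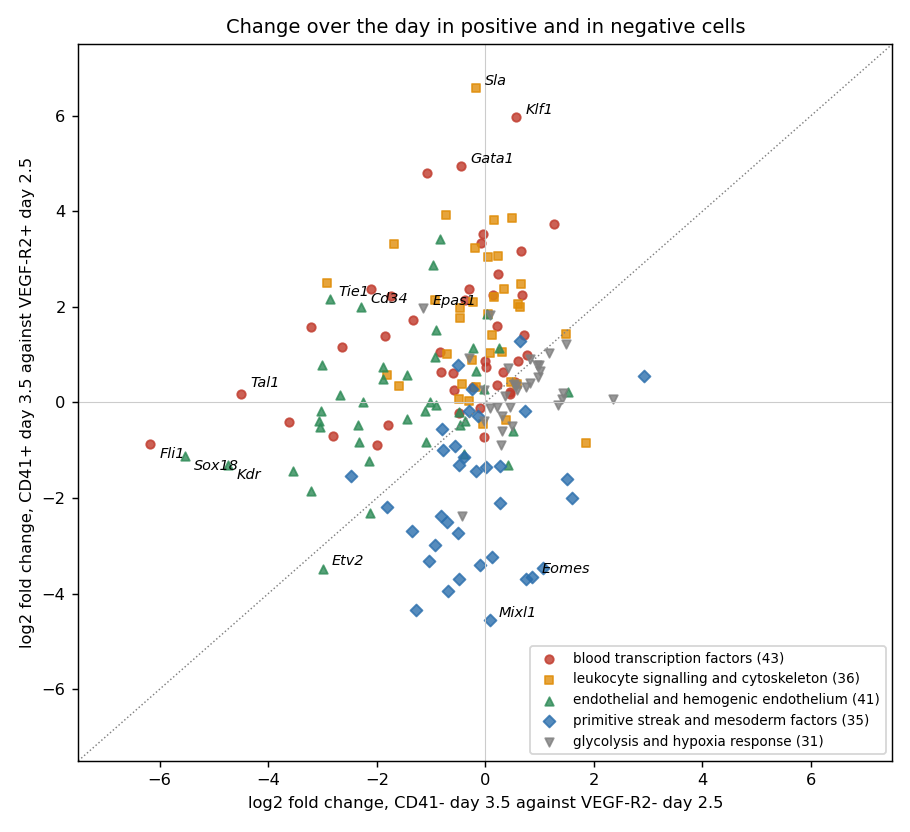
Log2 fold change of genes of 5 lists in positive cells (CD41+ day 3.5 against VEGF-R2+ day 2.5, vertical axis) and in negative cells (CD41- day 3.5 against VEGF-R2- day 2.5, horizontal axis). Day and sorting marker differ together on both axes. The dotted line marks equal change. Most blood factors lie above the line, with Tal1 and Fli1 far to the left at -4.50 and -6.17 in negative cells, most streak factors such as Mixl1 lie below it, and Etv2 lies close to it.

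CD144+ cells sorted on the same day offer a neighbouring population, since CD144 (VE-cadherin) marks endothelium. Against them, 925 genes were higher in CD41+ cells (5.08%) and 1759 lower (9.67%). This comparison uses the same CD41+ arrays as those above, so its values are given for members only. Erythroid genes were higher in CD41+ cells, with Hba-x at 40893 and 32212 in CD41+ cells, against 236 and 214 in CD144+ cells (log2 fold change 7.30, adjusted p = 1.42e-10), and 21 of 43 blood factors were higher and 1 lower. Tal1 (1.38, adjusted p = 9.68e-05) and Lmo2 (2.01, adjusted p = 4.12e-06) were higher in CD41+ cells on this side. Of the 41 endothelial genes 0 were higher and 15 lower in CD41+ than in CD144+ cells, among them Nrp1 (-1.07) and Nrp2 (-0.85). The 41 include Cdh5, the gene of the marker on which the CD144+ cells were sorted. Cd34 (0.39, adjusted p = 0.380) and Tie1 (0.69, adjusted p = 0.243) did not pass the test. Of the 32 pluripotency genes 30 were lower, with Sox2 at -3.59 (adjusted p = 9.56e-07). The median of this list was -2.74 against CD144+ cells and -0.90 against VEGF-R2+ cells, so the gap depended on the population compared.

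The greatest rises outside the lists were those of Tspan32, Treml2 and Adgrg1. Tspan32, a tetraspanin of blood cells, read 3113 and 2120 in CD41+ cells, against 41.6 and 5.86 in VEGF-R2+ cells (6.76 ± 0.60, adjusted p = 1.27e-06). Treml2, a receptor of the TREM family, read 1731 and 883, against 9.32 and 6.90 in VEGF-R2+ cells (6.46 ± 0.57, adjusted p = 1.11e-06). Adgrg1 (GPR56), an adhesion receptor, read 1489 and 1636, against 12.3 and 22.3 in VEGF-R2+ cells (6.10 ± 0.50, adjusted p = 5.01e-07). All VEGF-R2+ signals of these genes lay below the median of all values. Gucy1a1, a subunit of the nitric oxide receptor, was 6.02 higher, the transcriptional coactivator Cited4 5.78, the adaptor Grap2 4.83, Igfbp5, which binds insulin-like growth factors, 4.81, and Mfsd2b, a sphingosine 1-phosphate exporter of red cells and platelets, 4.79. The urea transporter Slc14a1 and Cyth4, an exchange factor of ARF GTPases, were each 4.75 higher. Among the greatest falls, Pcolce2, an enhancer of collagen processing, read 8.96 and 4.44 in CD41+ cells, against 656.5 and 525 in VEGF-R2+ cells (-5.57 ± 0.29, adjusted p = 2.60e-09). Cyp26a1, which degrades retinoic acid, read 374 and 833, against 12019 and 13747 in VEGF-R2+ cells (-4.51 ± 0.24, adjusted p = 2.97e-09). Mmp9, a matrix protease, read 11.2 and 4.64 in CD41+ cells, against 507 and 419 in VEGF-R2+ cells (-5.11 ± 0.42, adjusted p = 5.31e-07). Crym, which binds thyroid hormone, read 13.0 and 73.9, against 1229 and 1324 in VEGF-R2+ cells (-5.04 ± 0.51, adjusted p = 5.74e-06). Arrays that do not overlap were a condition for naming the greatest falls, as for the greatest rises, so their separation is no added result.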

How the data were processed

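RNA of sorted cells was hybridised to Mouse Genome 430 2.0 arrays. The intensity values deposited by the authors are MAS5 signals on a linear scale, which they scaled to a mean of 500 after trimming below percentile 2 and above percentile 98. The lists in their publication came from other software, not from these values. Of 45101 probe sets, 64 controls were left out. Values were taken as log2(signal + 6.03), the offset being the 10th percentile of all values, and fitted for all 16 arrays with limma 3.58.1 in R 4.3.3 (a mean per population, 8 residual degrees of freedom, eBayes with trend). P-values were adjusted by Benjamini-Hochberg over 45037 probe sets and called under 0.05. Contrasts were CD41+ minus VEGF-R2+, the same minus the change in negative cells, and CD41+ minus CD144+ of day 3.5. Each gene was read by 1 probe set, the brightest on average over all arrays; 34945 probe sets had 1 symbol, 932 several and 9160 none. The fit was checked on simulated data with the same spread for all populations, so unequal spread between populations was not checked. Python 3.11.15, pandas 2.3.3, numpy 2.4.6 and matplotlib 3.10.9 did the rest.

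Genes were named by rule: the sorting markers; the 12 largest called changes each way, above the median signal and without overlap; in each list up to 5 called members with the largest change and up to 3 bright ones not called; the 10 largest each way outside the lists; and genes with probe sets called in both directions. Other list members were named after their values were seen. The members and lists were chosen with earlier results of these data known. Alternatives covered normalization, offset, floor, a filter on dim probe sets, the arrays fitted, each array left out, a replicate block, a robust prior, array weights and the probe set that stands for a gene. Duplicates came from separate experiments. Arrays of embryo tissue were not used here, and some genes are not reported here.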

Additional observations from a re-analysis of the deposited data

Results flagged for a closer look

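For the sorting markers and the probe sets with the largest changes in each direction, the change in positive cells was set against that in negative cells (limma). Day and sorting marker change together in both. The difference passed for 14 of 14. Most were chosen for a large change in positive cells, which is itself a term of the difference, so the values below are a description and the share that passed says nothing of other genes. Among genes with the greater rise in positive cells, the difference on the log2 scale was 9.41 ± 0.40 (SE) for Hba-x, 8.30 ± 0.85 for Tspan32 and 8.24 ± 0.80 for Treml2. It was 7.09 ± 0.62 for Hbb-y and 5.63 ± 0.45 for Hbb-bh1 at the probe sets with their largest change, which are not the brightest ones described above. Sla, the blood cell adaptor, differed by 6.74 ± 0.93 and Itga2b by 3.03 ± 0.34. For Kdr the difference was 3.44 ± 0.38, since its fall in negative cells was the deeper one.

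Among genes with the deeper fall in positive cells, the difference was -5.15 ± 0.42 for Pcolce2, -4.17 ± 0.72 for Crym and -2.48 ± 0.26 for Myl7. It was -3.80 ± 0.83 for Wnt5a at its probe set of largest change, -3.64 ± 0.74 for the cadherin gene Cdh4 and -2.39 ± 0.59 for Mmp9. The negative arrays differ from the positive ones in the signal of the hybridisation controls, whose part in these differences was not tested.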

How the results depend on the processing

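Counts of called probe sets moved with the arrays fitted and with the prior on the spread. The 2262 higher probe sets became 1190 with the positive populations only, 784 with the compared groups only, 1393 with a robust, untrended prior and 1019 when arrays were weighted. The 2170 lower ones became 1208, 789, 1338 and 1247 under the same settings. The 1817 probe sets beyond the bound became 1070 with an offset of 32, 1208 with a floor of 50 and 1139 with the compared groups only. The 2128 probe sets whose change differed from that in negative cells became 973 with the robust prior. The 4404 that differed from CD144+ cells became 2303 with the positive populations only, 2605 with the robust prior and 2307 with array weights. With single arrays left out, the counts ran from 1304 to 2331, from 1449 to 2660, from 1710 to 2789, from 1655 to 2956 and from 2307 to 5560, in the same order; leaving out CD41+ array 1 gave 1304, 1710 and 2307. Kdr ran from -1.81 to -0.82 (the last without CD41+ array 1, adjusted p = 0.0740) and had -1.31 with the robust prior (adjusted p = 0.0558). The cause was not tested. Of 203 named probe sets called, 138 to 199 kept their call under each alternative that tested all of them, and 0 changed sign. With each gene read by its probe set of largest variance, the 15 lower Wnt genes became 6, the 14 higher heme genes 9, the 5 lower cytokine receptor genes 3, the 4 lower adhesion genes 1, and the 5 higher and 6 lower cell cycle genes 2 and 3. Same-numbered arrays of the compared groups deviated together only weakly (r = 0.068), so the numbers were not taken as pairs; a replicate block gave 2297, 2198, 1805, 2177 and 4503.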

Other observations

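Genes of the interferon response and antigen presentation, measured as a list of 25, had 1 higher and 7 lower members in CD41+ cells. Ifitm1, an interferon-induced membrane protein that is also known from early mesoderm and germ cells, read 2579 and 3413 in CD41+ cells, against 12258 and 13934 in VEGF-R2+ cells (log2 fold change -2.14 ± 0.14 (SE), limma adjusted p = 2.86e-08). The immunoproteasome subunit Psmb8 read 111 and 321 in CD41+ cells and 874 and 845 in VEGF-R2+ cells (-2.14 ± 0.31, adjusted p = 0.000191). Both genes passed with any array left out, but the list had 3 lower members without CD41+ array 1 and 2 without VEGF-R2+ array 2.

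Of 31 Hox genes, 0 were higher and 2 lower (6.45%), near the share of 7.62% lower over all genes. Hoxb1, which is among the first Hox genes active in the streak, read 128 and 109 in CD41+ cells, against 688 and 464 in VEGF-R2+ cells (-2.20 ± 0.33, adjusted p = 0.000264). Hoxb9 was dim, with all 4 signals below the median of all values, and its adjusted p of 0.0416 rose above the threshold with any array left out. Of 18 genes of apoptosis and survival, 2 were higher and 3 lower (11.1% and 16.7%, against 7.10% and 7.62% over all genes). The pair with calls that held with any array left out were Bid, a messenger between death receptors and mitochondria, at 3517 and 2323 in CD41+ cells, against 1060 and 836 in VEGF-R2+ cells (1.60 ± 0.20, adjusted p = 3.83e-05), and Pmaip1 (Noxa), at 247 and 350.5, against 1088 and 633 (-1.48 ± 0.21, adjusted p = 0.000176).

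For 19 genes, probe sets were called in opposite directions. Ints6, a subunit of the Integrator complex, had one probe set at 222 and 387 in CD41+ cells, against 989 and 1135 in VEGF-R2+ cells (log2 fold change -1.83), and another at 600.2 and 778, against 527 and 404 (0.56). The second call was lost without CD41+ array 2 (adjusted p = 0.244) or VEGF-R2+ array 2 (0.317). Cnot6, a deadenylase subunit, had a probe set at 2597 and 2644 in CD41+ cells, against 1897 and 1809 in VEGF-R2+ cells (0.50), and one at 2399 and 2599, against 3389 and 3227 (-0.40). The call upwards was lost without VEGF-R2+ array 2 (0.0615), and the one downwards without CD41+ array 1 (0.179) or either VEGF-R2+ array (0.161 and 0.0988). All 4 of these probe sets were bright in both populations. In Map4, a microtubule-associated protein, the higher probe set was dim, at 128 and 63.1 in CD41+ cells and 5.85 and 3.93 in VEGF-R2+ cells, whereas the lower ones were bright. The higher call was lost without CD41+ array 1 (0.108) or VEGF-R2+ array 2 (0.0653), so that in each of these genes at least 1 of the opposite calls rested on single arrays.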
